A study of Mus musculus with 8 samples.

Results

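The Slc25 family was read from the array values as the probe sets with exactly 1 platform gene symbol that begins with Slc25a. That gave 93 probe sets of 44 genes, among 18193 genes with such a probe set, and each gene was represented by its brightest probe set, judged by mean log2 signal. Of the 44 genes, 39 lay above the filter on dim probe sets (a mean signal of 18.7) and were tested together with all other genes that passed, 11754 in total. The other 5, Slc25a31, Slc25a34, Slc25a41, Slc25a48 and Slc25a54, had mean signals from 4.04 to 9.53 and were not tested. RNA came from germinal centre B cells, which divide and mutate their antibody genes after meeting antigen, in 4 MYC-positive and 4 MYC-negative samples from the spleens of 8-week-old mice labelled GFPMYC/C57BL6. In these knock-in mice GFP reports MYC, and both groups carry the allele. The mice had received sheep red blood cells (SRBC) 12 days before. Cells that were PNAhi/CD95hi were divided by GFP into the positive and the negative group, and between 5 and 20 ng of total RNA was amplified for each array. Each MYC-positive sample is paired with 1 MYC-negative sample by the descriptions, in 4 pairs. The treatment protocol speaks of a sort for each mouse and the design text of pools, so it is not settled whether a pair is a single animal.

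Slc25 proteins are nuclear-encoded carriers that move small molecules across membranes which those molecules cannot cross alone, in nearly all cases the inner membrane of mitochondria. ADP goes in and ATP comes out through them, and so do the amino acids of the malate-aspartate shuttle, phosphate, iron, coenzymes and folate. A few members sit elsewhere, such as Slc25a17 in peroxisomes and Slc25a46 in the outer mitochondrial membrane. MYC is a transcription factor that binds the E-box CACGTG together with its partner MAX and is known for raising genes of growth and metabolism in dividing lymphocytes.

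The 8 arrays had nearly the same trimmed mean signal (497 to 498), so they had been scaled one by one. Their median signal still differed by group, from 41.4 to 55.8 on MYC-negative and from 28.2 to 39.7 on MYC-positive arrays. Probe sets with a signal above 100 made up 38.3% to 42.6% and 34.7% to 39.2%. Myc itself differed by 2.83 on the log2 scale (SE 0.28, n = 4 pairs), which checks the sort and is no result. The MYC-positive array of pair 4 stood apart on the first principal component (89.95, against 24.5 to 31.1 for the other MYC-positive arrays). The B cell genes Cd79a, Cd79b and Ms4a1 were bright in both groups. Their mean signals were 5820, 11025 and 14207 in MYC-negative and 4035, 8996 and 12840 in MYC-positive samples. Pax5 was dimmer (148 and 44.2). Of the 4 B cell markers only Pax5 was called lower (-1.75), and of 5 germinal centre markers only Fas (-0.61), which encodes the sorting marker CD95. At an unadjusted limma p under 0.05, 3 of the 4 and 4 of the 5 were lower and 0 were higher. Of all 11754 genes 2257 were lower and 1996 higher at that level. Of 13 macrophage markers above the filter, 9 were higher and 1, Apoe, was lower in MYC-positive samples, and 1 more (Mertk) lay below it. Of the 13, 6 had a MYC-negative mean under the filter level and so passed through the MYC-positive arrays, among them 5 of the 9 higher ones, so this count is a description. The summed signal of the 14 markers ran from 709 to 1611 on MYC-negative and from 1681 to 11304 on MYC-positive arrays. The plasma cell marker Sdc1 was 2.02 higher, as 1 of 4 plasma cell markers that passed. Of 5 T cell and 5 erythroid markers, 4 of each lay below the filter. The part of these other cells in the results on carriers was not tested, and in sorted populations fewer cells of a type and less RNA per cell cannot be told apart.

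Of the 39 carrier genes, 6 were higher in MYC-positive samples, Slc25a4, Slc25a13, Slc25a15, Slc25a32, Slc25a33 and Slc25a39, and 5 were lower, Slc25a27, Slc25a37, Slc25a40, Slc25a45 and Slc25a53 (limma with the pair as a block, Benjamini-Hochberg adjusted p under 0.05 over all genes tested). These are 15.4% and 12.8% of the family, beside 11.2% of all genes called higher and 11.5% called lower, so by calls the family stood near the background. Slc25a27 passed the filter through its MYC-negative arrays, and a filter at the 60th percentile, which leaves it out, gave 6 higher and 4 lower of 31 carriers, beside 15.1% and 14.6% of all genes. The median log2 difference of the 39 carriers was 0.14, where that of all genes tested was -0.06. The MYC-positive signals of 9 of the 39 carriers all lay above the MYC-negative ones and those of 2 all lay below. Beside these stood 11.1% and 10.9% of all genes. In 4 of 4 pairs 12 of the 39 carriers were higher and 7 lower, beside 19.3% and 23% of all genes. Each of the 11 called carriers had its sign in all 4. The calls depended on which pairs entered. Without pair 1 the limma fit called 0 carriers in either direction, beside 3.43% of all genes higher and 2.99% lower, and without pair 2 it called only Slc25a4, beside 3.87% and 3.62%. Without pair 3 it called 4 higher and 1 lower, beside 10.1% and 8.48%. Without pair 4, whose MYC-positive array stood apart, it kept all 11 and called 7 higher and 7 lower, beside 14.8% and 17.3%. With no block for the pair 6 were higher and 2 lower, beside 8.98% and 7.67%, and Slc25a37, Slc25a40 and Slc25a45 were no longer called (adjusted p = 0.079, 0.14 and 0.070). With no filter the counts were 6 and 3, beside 6.49% and 6.33%, and Slc25a27 and Slc25a37 were no longer called (adjusted p = 0.059 and 0.057). With no intensity trend in the fit they were 2 and 2, beside 6.26% and 6.56%, and Slc25a4, Slc25a15, Slc25a32, Slc25a37, Slc25a39, Slc25a40 and Slc25a53 were no longer called (adjusted p from 0.053 to 0.080). Scaling shifted the balance too. Under quantile normalization the median of all genes moved up by 0.15, and 8 carriers were higher and 3 lower, beside 15.2% and 11.3% of all genes. Under centring of each array on its median it moved up by 0.44, and 13 were higher and 1 lower, beside 27.3% and 4.65%. The 7 carriers newly called higher by centring were Slc25a1, Slc25a3, Slc25a5, Slc25a10, Slc25a12, Slc25a17 and Slc25a20. The share of higher calls among all called genes was 49.4% with the deposited scaling, 57.2% with quantile normalization and 85.4% with centring.

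**Figure D1:**
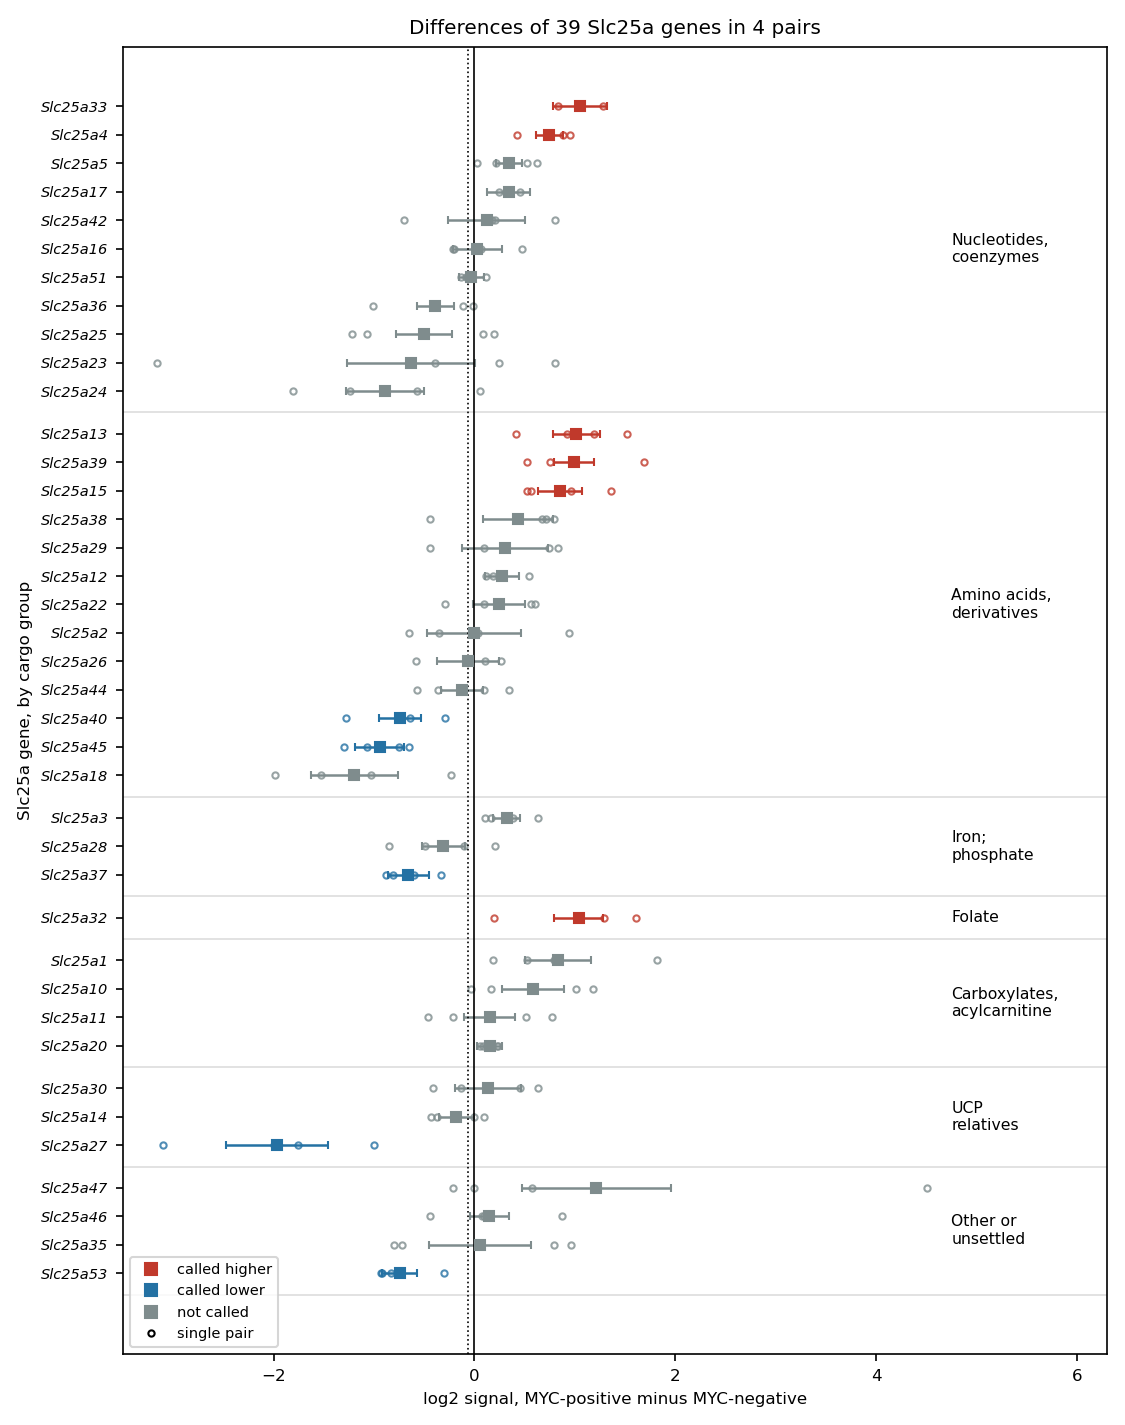
Log2 signal difference (MYC-positive minus MYC-negative, x axis) of 39 Slc25a genes grouped by cargo (y axis; UCP relatives are carriers akin to uncoupling proteins). Squares with bars are the fitted difference and its SE, open circles the 4 pairs, the dotted line the median of all genes (-0.06); the 6 genes in red were called higher and the 5 in blue lower.

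The promoters of carriers were read from a RefSeq table of build GRCm38.p6, which spans 250 bases before to 50 bases after each listed start and held an entry for 34 of the 44 genes. The E-box CACGTG, which reads the same on both strands, was present for 3 of the 5 called-higher carriers with an entry (Slc25a13, Slc25a15 and Slc25a33), for 0 of the 3 called-lower ones and for 6 of the 30 tested carriers with an entry. It was present for 11.7% of the 9544 tested genes with an entry and 8.09% of all genes in the table. The windows differed in base content. G and C made up 60.7% to 79% of those of called-higher carriers. The median was 59.7% over all carrier windows and 52.7% over all windows in the table. The part of base content in the matches was not tested. Slc25a15 has 2 listed starts and the E-box lies before 1 of them. The bases around the E-box are shown for Slc25a33 and Slc25a13, and for Slc25a36, which carries the same kind of cargo as Slc25a33 and was not called, so that the sites can be compared. Capitals mark the E-box, and each stretch ends at or before the base next to the start. A match describes the letters of the window and is not evidence of binding. The stretches lie on the minus strand at chr4:149774268-149774322, chr9:97111176-97111275 and chr6:6217246-6217345, in the order printed.
Slc25a33: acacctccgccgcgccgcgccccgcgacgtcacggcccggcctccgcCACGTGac
Slc25a36: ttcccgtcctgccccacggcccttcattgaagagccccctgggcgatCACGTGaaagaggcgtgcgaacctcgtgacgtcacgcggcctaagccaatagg
Slc25a13: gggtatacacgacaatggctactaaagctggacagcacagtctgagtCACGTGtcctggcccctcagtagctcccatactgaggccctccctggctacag
The E-box begins 8 bases before the start in Slc25a33, 77 in Slc25a15, 125 in Slc25a13 and 187 in Slc25a36. Among the other tested carriers it was found for Slc25a1, 239 bases before the start, and for Slc25a14.

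Nucleotide and coenzyme carriers included 2 higher genes and 0 lower among 11 tested, beside 11.2% and 11.5% of all genes (0.03 median log2 difference). At an unadjusted limma p under 0.05, 3 were higher and 1 lower, beside 1996 and 2257 of all 11754 genes. Slc25a33 carries pyrimidine nucleotides into mitochondria. Its signal on the MYC-negative arrays of pairs 1 to 4 was 155, 176, 154 and 135, and on their MYC-positive partners 277, 365, 315 and 329. The groups did not overlap, and the log2 difference was 1.05 (SE 0.26, n = 4 pairs, limma adjusted p = 0.022), a 2.07-fold rise that lay between 0.84 and 1.28 in the 4 pairs. Slc25a36, the other pyrimidine nucleotide carrier, read 3834, 3475, 4522 and 5137 on MYC-negative arrays and 2880.4, 3207, 4482 and 2549 on MYC-positive ones. Every pair had the lower value on the MYC-positive side, with overlap between the groups and a log2 difference of -0.39 (SE 0.18, limma adjusted p = 0.16), which was -0.47 with adjusted p under the threshold after quantile normalization and 0.05 after median centring. The difference of Slc25a33 exceeded that of Slc25a36 in 4 of 4 pairs, by 1.44 on average (SD 0.58, from 1.05 to 2.29), a gap that median centring cannot alter. An exact 2-sided sign-flip test gave p = 0.125, the smallest value that 4 pairs allow, and adjusted p = 0.188 over the 6 such pairs of related carriers compared here.

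Slc25a4 encodes an ADP/ATP translocase (ANT1), which exports ATP from the matrix in return for ADP. Its MYC-negative signals were 3962, 5412, 4184 and 6797 and its MYC-positive signals 7324, 7274, 8077 and 11185. All MYC-positive arrays lay above all MYC-negative ones, and the log2 difference was 0.75 (SE 0.13, limma adjusted p = 0.0062), or 1.68-fold. Slc25a5 encodes ANT2, the translocase typical of dividing cells, and read 8744, 10558, 12542 and 19539 against 13443, 12278, 18037 and 19912. It was the higher in each pair, with overlapping groups, and stood at 0.35 (SE 0.13, limma adjusted p = 0.087). After median centring Slc25a5 was called higher (0.79, limma adjusted p = 0.0075). The difference of Slc25a4 exceeded that of Slc25a5 in 4 of 4 pairs by 0.40 on average (SD 0.22, exact p = 0.125, the smallest possible). This gap holds for the brightest probe sets: with the mean over probe sets the order turned, with Slc25a4 at 0.16 and Slc25a5 at 0.51. The calcium-regulated ATP-magnesium/phosphate carriers Slc25a23 (-0.63, SE 0.64), Slc25a24 (-0.89, SE 0.39) and Slc25a25 (-0.50, SE 0.28) did not pass. Slc25a24 and Slc25a25 were both called lower without pair 4. Coenzyme carriers did not pass either: Slc25a17, the peroxisomal one, was at 0.34 (SE 0.22) with no overlap between groups, Slc25a42, a CoA carrier, at 0.12 (SE 0.39), Slc25a16 at 0.03 (SE 0.24) and Slc25a51, the NAD carrier, at -0.03 (SE 0.12). The call of Slc25a33 ended without pair 1, pair 2 or pair 3 (adjusted p = 0.085, 0.12 and 0.054), and that of Slc25a4 without pair 1 (0.066).

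Of 13 carriers of amino acids and their derivatives 3 were higher and 2 lower, beside 11.2% and 11.5% of all genes (0.24 median log2 difference). Slc25a13 encodes citrin, an aspartate/glutamate exchanger of the malate-aspartate shuttle. Its signals were 404, 434, 581 and 553 on MYC-negative and 926, 1244, 1099 and 738 on MYC-positive arrays. The groups did not overlap, pair 4 showed the smallest change (0.42) and pair 2 the largest (1.52), and the log2 difference was 1.01 (SE 0.23, limma adjusted p = 0.016). Slc25a12, the other exchanger of this kind (aralar), was measured at 1059.6, 1197, 1189 and 1009.7 against 1261, 1357, 1288 and 1469. It was higher in each pair without overlap, yet by only 0.27 (SE 0.17, limma adjusted p = 0.29). After median centring Slc25a12 was called higher (0.71, limma adjusted p = 0.020). The gap between Slc25a13 and Slc25a12 was 0.74 on average (SD 0.62) and ran the other way in pair 4 (exact p = 0.25). The glutamate carriers Slc25a22 (0.24, SE 0.26) and Slc25a18 (-1.20, SE 0.43, limma adjusted p = 0.080) did not pass. Slc25a22 exceeded Slc25a18 in difference in 4 of 4 pairs, by 1.44 (SD 0.53, exact p = 0.125), but Slc25a18 is dim, with MYC-positive signals of 18.8 to 24.6 on 3 of 4 arrays.

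Slc25a15 encodes the ornithine/citrulline carrier of mitochondria. It read 588, 439, 562 and 518 on MYC-negative and 1146, 1129.9, 830.0 and 744 on MYC-positive arrays, with no overlap and a log2 difference of 0.85 (SE 0.22, limma adjusted p = 0.024). Slc25a45, which has been linked to methylated basic amino acids, was measured at 644, 573, 349.6 and 374 against 382, 233, 167 and 238. Each pair fell, with changes from -1.30 to -0.65, while the groups overlapped through the MYC-positive array of pair 1 (382), which lay above the MYC-negative arrays of pairs 3 and 4, and the log2 difference was -0.94 (SE 0.25, limma adjusted p = 0.025). Of the other carriers of basic amino acids, Slc25a29 was at 0.31 (SE 0.43) and Slc25a2, a dim gene, at -0.005 (SE 0.46). The glycine carrier Slc25a38 (0.43, SE 0.35), the branched-chain amino acid carrier Slc25a44 (-0.12, SE 0.21) and the S-adenosylmethionine carrier Slc25a26 (-0.07, SE 0.31) did not pass.

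Slc25a39 and Slc25a40, closely related carriers through which glutathione enters mitochondria, moved in opposite directions. Slc25a39 read 1322, 1676, 2518 and 2436 on MYC-negative and 4256, 3345, 3620.4 and 4108 on MYC-positive arrays. The groups did not overlap and the log2 difference was 0.99 (SE 0.20, limma adjusted p = 0.0097), the lowest adjusted p of the family after Slc25a4. Slc25a40 read 1667, 841, 1544 and 1369 against 1357, 539, 926 and 564. It was lower within each pair, with changes from -1.28 to -0.30, and the groups overlapped. The log2 difference was -0.74 (SE 0.21, limma adjusted p = 0.033). Between the paralogues the gap was 1.73 (SD 0.36, n = 4 pairs, from 1.26 to 2.03), at the smallest exact p of 0.125. After median centring Slc25a39 was at 1.43, and Slc25a40 was no longer called (-0.30, adjusted p = 0.31). Calls of all 5 genes of the amino acid group ended without pair 1 (adjusted p from 0.066 for Slc25a39 to 0.13 for Slc25a15) and without pair 2 (from 0.058 to 0.17). Those of Slc25a40 and Slc25a45 also ended without pair 3 (0.080 and 0.066), and Slc25a45 had adjusted p = 0.18 after median centring and 0.065 after quantile normalization.

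Metal carriers showed 0 higher genes and 1 lower gene of 3, beside 11.2% and 11.5% of all genes. Slc25a37 encodes mitoferrin-1, which brings iron into mitochondria and is best known from red cell precursors, and Slc25a28 encodes mitoferrin-2, its counterpart in other cells. Slc25a37 read 845, 945, 1074 and 708 on MYC-negative and 672, 621, 582 and 404 on MYC-positive arrays. All MYC-positive values lay below all MYC-negative ones, and the log2 difference was -0.66 (SE 0.20, limma adjusted p = 0.045), close to the threshold. Slc25a28 was lower in 3 of 4 pairs, at -0.31 (SE 0.21, limma adjusted p = 0.33), and the 2 mitoferrins differed by 0.35 (SD 0.53, exact p = 0.375), less than the spread between pairs. The summed signal of 5 erythroid markers ran from 46.3 to 71.7 on MYC-negative and from 36.2 to 74.8 on MYC-positive arrays. Slc25a3, which carries phosphate for ATP synthesis and also copper, had non-overlapping groups (5375, 6081, 5652 and 5507 against 6990.0, 6796, 6098 and 8566) and a log2 difference of 0.32 (SE 0.14, limma adjusted p = 0.12). The other kept probe set of Slc25a3 (mean signal 811) was at -0.31 (SE 0.22) and lower in 3 of 4 pairs. With the mean over probe sets Slc25a3 was at 0.008. The call of Slc25a37 ended without pair 1, pair 2 or pair 3 (adjusted p = 0.11, 0.18 and 0.14) and after quantile normalization (0.079) or median centring (-0.22, adjusted p = 0.47), besides the fits without block, filter or trend given above.

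The folate carrier gene Slc25a32 was higher in MYC-positive samples. Its protein brings folate and FAD into mitochondria, where one-carbon units are made from serine. Signals were 463, 622, 749 and 780.3 on MYC-negative and 961, 1519.6, 2286 and 893 on MYC-positive arrays. The groups did not overlap, but pair 4 changed by only 0.19 on the log2 scale while pairs 1 to 3 changed by 1.05 to 1.61, and the fitted difference was 1.04 (SE 0.25, limma adjusted p = 0.019). Without pair 4 it was 1.32. Without pair 1, pair 2 or pair 3 the adjusted p was 0.10, 0.11 and 0.066. Among the 6 mitochondrial folate enzymes listed beside it, 3 were higher and 0 lower, beside 11.2% and 11.5% of all genes. The higher ones were Shmt2, which splits serine (1.29, SE 0.16), Mthfd2 (0.78, SE 0.13) and Mthfd1l (0.66, SE 0.19). Shmt2 kept its call without pair 1 or pair 2 (adjusted p = 0.028 and 0.019), Mthfd2 lost it without pair 1 (0.055) and Mthfd1l without either (0.15 and 0.095).

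**Figure D2:**
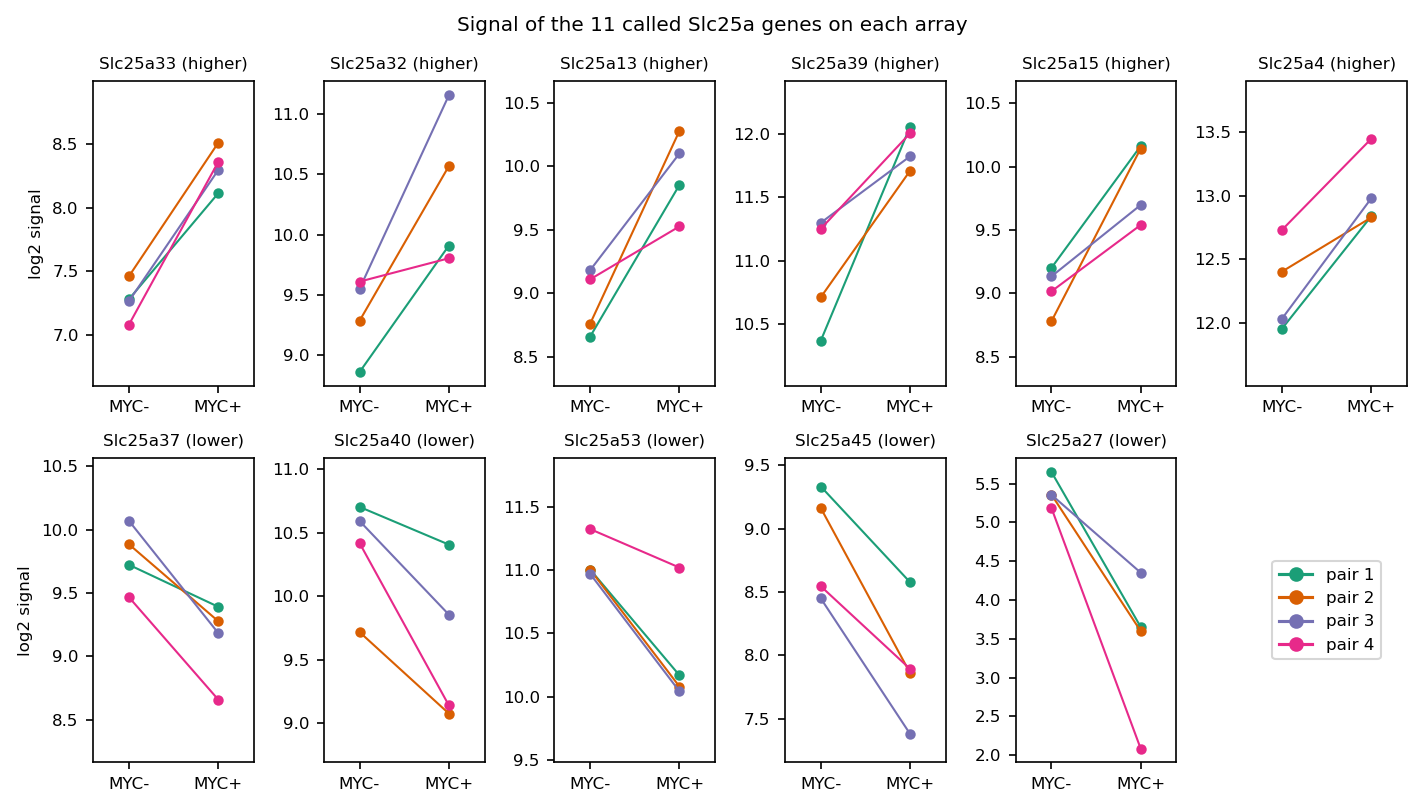
Log2 signal (y axis) of the 11 called Slc25a genes on each MYC-negative (MYC-) and MYC-positive (MYC+) array (x axis), with a line and a colour for each pair. Lines rise in all 4 pairs for the 6 genes of the upper row and fall in all 4 for the 5 of the lower row; pair 4 has the smallest change for Slc25a13, Slc25a15, Slc25a32, Slc25a45 and Slc25a53.

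Carriers of carboxylates and acylcarnitine had 0 of 4 called, beside 11.2% of all genes higher and 11.5% lower. At an unadjusted limma p under 0.05, 1 was higher and 0 lower, beside 1996 and 2257 of all 11754 genes. Slc25a1 exports citrate to the cytosol and was higher in each pair, with 212, 239.8, 179 and 117 against 367, 344, 204 and 414. The groups overlapped and the change ran from 0.19 to 1.82, so the log2 difference of 0.83 (SE 0.33) had a limma adjusted p of 0.10. It passed after quantile normalization (1.16) and after median centring (1.27), as did the dicarboxylate carrier Slc25a10 (0.92 and 1.02), which was at 0.58 (SE 0.31) as deposited. The oxoglutarate/malate carrier Slc25a11 (0.15, SE 0.25) and the acylcarnitine carrier Slc25a20 (0.15, SE 0.12) did not pass as deposited.

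Relatives of the uncoupling proteins included Slc25a27, which is known from brain and was the dimmest tested member. Its signals were 50.2, 41.0, 40.9 and 36.4 on MYC-negative and 12.6, 12.1, 20.4 and 4.24 on MYC-positive arrays. All pairs were lower, and the log2 difference was -1.97 (SE 0.51, limma adjusted p = 0.024), but 3 of the 4 MYC-positive values lay under the filter level of 18.7, and the gene passed the filter through its MYC-negative arrays. With signals below 16 set to 16 the difference was -1.30. Slc25a14 (-0.18, SE 0.17) and Slc25a30 (0.14, SE 0.33) did not pass. Slc25a53, whose cargo is not settled, read 2053, 2052, 2005 and 2561 against 1152, 1083, 1055 and 2075. Pairs 1 to 3 were nearly alike, with changes of -0.83 to -0.93, while pair 4 was brighter on both sides and changed by -0.30, which made the groups overlap, and the log2 difference was -0.75 (SE 0.17, limma adjusted p = 0.017). Slc25a46, which acts in mitochondrial shape (0.15, SE 0.20), Slc25a35 (0.06, SE 0.51) and Slc25a47 (1.21, SE 0.74) did not pass. The difference of Slc25a47 came from pair 4 (4.51), with -0.22 to 0.58 in the others. Without pair 1 or pair 2 the adjusted p of Slc25a27 was 0.11 and 0.095 (0.059 after quantile normalization) and that of Slc25a53 0.11 and 0.11, and Slc25a53 had 0.052 without pair 3 and 0.29 after median centring (-0.31).

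**Figure D3:**
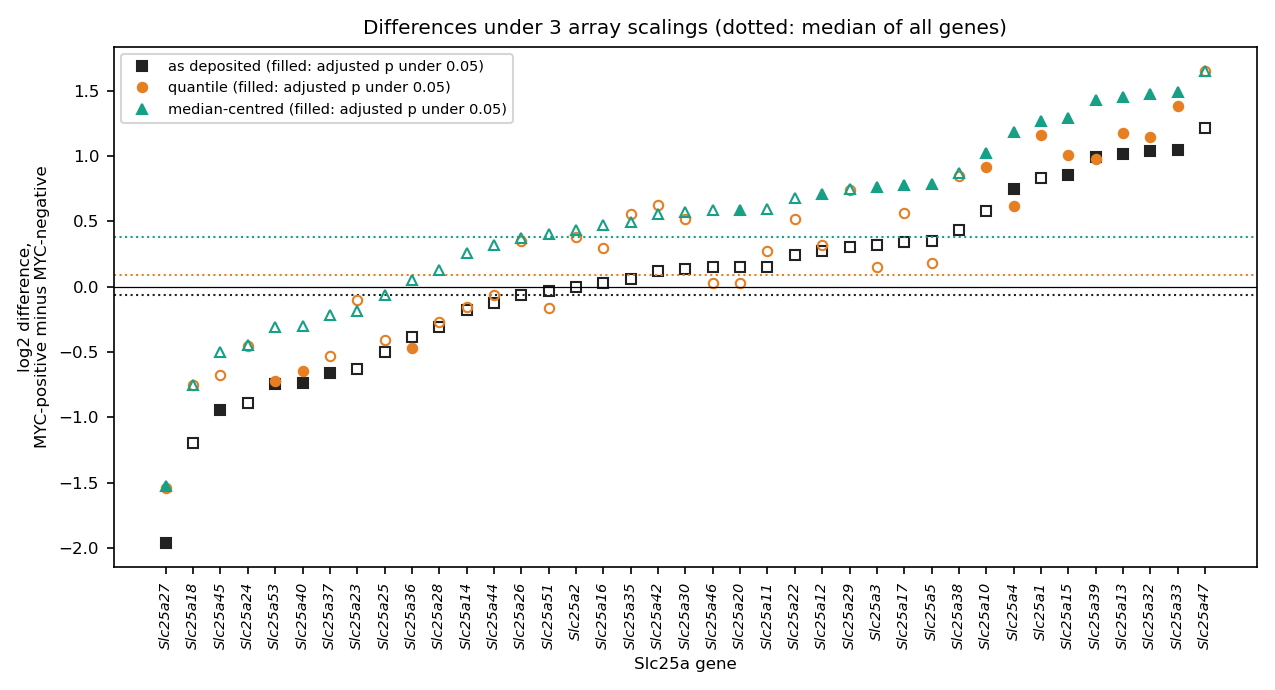
Log2 difference (MYC-positive minus MYC-negative, y axis) of the 39 Slc25a genes (x axis, ordered by the deposited scaling) as deposited, after quantile normalization and after median centring, with filled symbols for adjusted p under 0.05 and dotted lines for the median of all genes. Filled symbols above 0 number 6, 8 and 13 and those below 0 number 5, 3 and 1.

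Several probe sets of 1 gene gave a further measure that the choice of the brightest had left out. Of 93 probe sets 70 passed the filter, and 17 genes had more than 1. In 8 of these all kept probe sets had the same sign and in 9 they did not. For Slc25a39 the 4 kept probe sets differed by 0.99, 1.45, 1.19 and 1.13, each higher in 4 of 4 pairs and each past the threshold when p-values were adjusted over the 22024 kept probe sets with a gene. Slc25a32 had 2 bright probe sets at 1.04 and 0.98, both past the threshold, and a dim one at 0.56. For Slc25a5 all 8 probe sets were higher, from 0.32 to 0.94, and 4 of them passed, although the brightest did not, so the call depended on the probe set. For Slc25a4 the 3 bright probe sets were at 0.75, 0.62 and 0.45, the last with adjusted p = 0.054, and the dim one at -1.18 (SE 0.84, mean signal 23.7). That dim probe set took the mean over probe sets to 0.16 (adjusted p = 0.68). Under the same averaging 5 carriers were higher and 4 lower, beside 9.93% and 13.5% of all genes. Slc25a5 was newly called (0.51, adjusted p = 0.014), while Slc25a4, Slc25a32 and Slc25a53 were not, with Slc25a32 at 0.86 (adjusted p = 0.050) and Slc25a53 at -0.54 (adjusted p = 0.099). Slc25a51 held the widest disagreement among bright probe sets: -0.03 for the brightest, -1.39 for another that passed (adjusted p = 0.035) and 0.39 for the last. The second probe set of Slc25a26 was 1.94 higher and passed, from a MYC-negative mean signal of 13.2 that lies under the filter level to 50.9, where the first was at -0.07. The second probe set of Slc25a53 was at -0.32 (SE 0.38) and did not pass. Of the probe sets that stood for a tested carrier, 5 have the suffix _x_at, by which Affymetrix marks probes that may also match other transcripts: Slc25a5, Slc25a25, Slc25a29, Slc25a32 and Slc25a39.

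**Figure D4:**
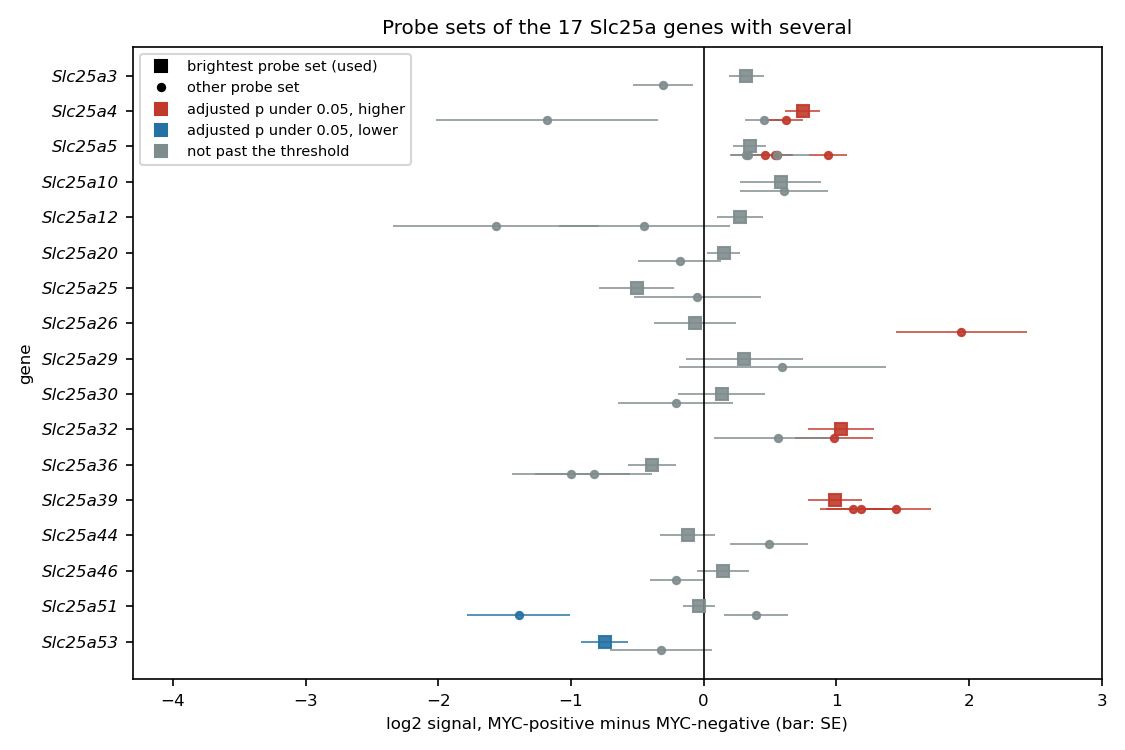
Log2 difference (MYC-positive minus MYC-negative, x axis) with SE of each kept probe set of the 17 Slc25a genes that have several (y axis). Squares are the brightest probe set, circles the others, and colour marks an adjusted p under 0.05; Slc25a39 has 4 probe sets between 0.99 and 1.45, and those of Slc25a51 run from -1.39 to 0.39.

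Genes that work beside the carriers were listed by cargo. Of 65 tested genes in 7 lists, 13 were higher and 1 lower, where 11.2% of all genes were called higher and 11.5% lower. In the malate-aspartate shuttle and citrate list 3 of 6 were higher, Got1 (1.08, SE 0.25), Got2 (0.80, SE 0.14) and Mdh2 (0.48, SE 0.11), enzymes that act on the same route as the aspartate/glutamate exchanger encoded by Slc25a13. The other 3 of the list, Mdh1 (0.13), Cs (0.22) and Acly (0.14), were not called, and neither was Slc25a12 (0.27), the other such exchanger. The list had a median of 0.35. Of 9 genes of mitochondrial nucleotide use 2 were higher, Nme4, a nucleoside diphosphate kinase of mitochondria (2.04, SE 0.32), and Twnk, the helicase of mitochondrial DNA (1.05, SE 0.19), with a median of -0.17. Among 11 iron-sulphur and haem genes only Glrx5 passed (0.78, SE 0.19), and among 11 thiamine and CoA genes 0 passed. At an unadjusted limma p under 0.05 the first list had 3 higher and 0 lower, and the second 2 higher and 1 lower. At that level 1996 of all 11754 genes were higher and 2257 lower. Of 19 other mitochondrial membrane transporters, Abcb6, a porphyrin transporter (1.47, SE 0.27), Sfxn1, which carries serine into mitochondria (0.73, SE 0.13), and Vdac2, an outer membrane channel (0.48, SE 0.13), were higher. Cpt1a was lower (-1.24, SE 0.21, limma adjusted p = 0.0047). It makes the acylcarnitine that Slc25a20 carries. Of the family members under other symbols, Mtch2, an outer membrane insertase, was higher (0.56, SE 0.14), and Mtch1 (0.22) and Ucp1 (-0.31) did not pass. Without pair 1 or pair 2 these lists kept 4 and 5 higher genes, beside 3.43% and 3.87% of all genes. Got1, Mdh2, Glrx5, Sfxn1, Vdac2 and Mtch2 lost their calls in both cases (adjusted p from 0.052 to 0.14). Got2 lost its call without pair 1 (0.055) and Abcb6 without pair 2 (0.057).

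**Figure D5:**
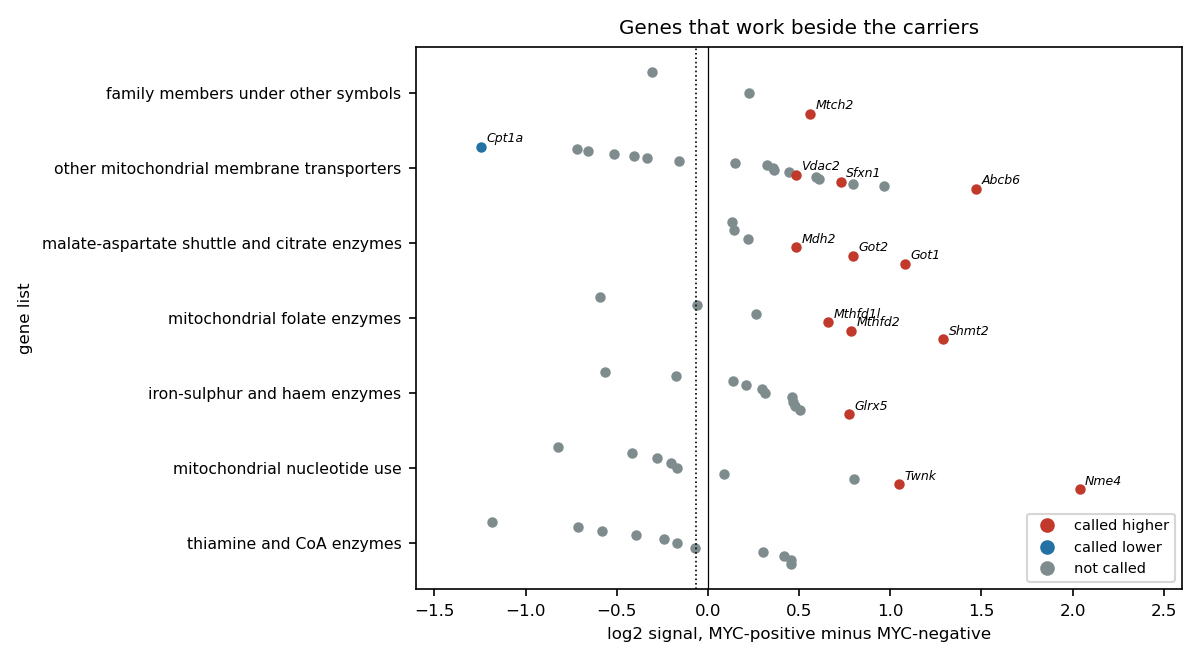
Log2 difference (MYC-positive minus MYC-negative, x axis) of 65 genes in 7 lists of enzymes and transporters that work beside the carriers (y axis), each dot a gene. The 13 genes in red were called higher and Cpt1a, in blue, lower; the dotted line is the median of all genes tested (-0.06).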

How the data were processed

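RNA was measured on 8 Affymetrix mouse expression arrays. The values are signal intensities that the authors deposited in 1 table. The submitters' processing notes name MAS5, for which neither version nor scaling target is given in the sources used here. In all, the table held 45056 probe sets, of which 34945 had 1 gene symbol, 932 several and 9160 none, with 19 controls left out. Signals under 1 were set to 1 and log2 was taken. The brightest probe set stood for each gene, and genes under the 40th percentile of mean log2 signal (4.22) were left out. The differences were fitted in limma 3.58.1 (R 4.3.3) with the pair as a block and an intensity trend, and p-values were Benjamini-Hochberg adjusted over all 11754 genes, with a threshold of 0.05. The fit was tested on simulated data. Related carriers were compared with exact 2-sided sign-flip tests over pairs.

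The sample descriptions state the pairs. Deviations from the group means correlated at 0.26, 0.17, 0.088 and 0.12 in pairs 1 to 4. Since animals and pools are not told apart, p-values may measure only the spread between these samples. Precision is limited by the number of arrays. All Slc25a genes were to be named, and for the lists of other genes those that passed the test. The members and lists were chosen with earlier results of these data known. Alternatives were another scaling, filter, signal floor, probe set rule, fit without block or trend, and leaving out each pair. Promoters came from RefSeq (GRCm38.p6).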

Additional observations from a re-analysis of the deposited data

Results flagged for a closer look

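Single arrays far from the other 3 of their group were looked for in all 39 tested carriers by Dixon's ratio, in 78 groups of 4, and 6 were found, 5 of them in pair 4. Chance alone gives about 1 such group in 20. In MYC-negative samples, the array of pair 4 read 65.79 for Slc25a24 (187 to 228 on the others), 9394 for Slc25a46 (4774 to 5045), 6.778 for Slc25a47 (52.6 to 66.6) and 2561 for Slc25a53 (2005 to 2053). The MYC-positive array of pair 4 read 2075 for Slc25a53 (1055 to 1152 on the others). The MYC-positive array of pair 1 read 95.7 for Slc25a18 (18.8 to 24.6 on the others).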

How the results depend on the processing

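Of the 11 called carriers 0 changed sign under any alternative. The count of higher carriers (6) was 13 after median centring and 2 without the intensity trend, and ran from 0 to 7 when each pair was left out. The count of lower carriers (5) was 2 without the replicate block, 3 after quantile normalization, 1 after median centring, 3 with no filter and 2 without the trend, and from 0 to 7 when each pair was left out. The family's median was 0.58 after median centring. The 13 higher genes of the partner lists became 33 after median centring and 4 to 17 when each pair was left out, and the 1 lower gene 1 to 6. Median centring added the same 0.44 to the difference of every gene. Beyond that shift, the cause of these changes was not tested.

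Sign changes touched 16 uncalled carriers. The mean over probe sets gave -0.58 for Slc25a12, -0.016 for Slc25a20, 0.94 for Slc25a26, -0.038 for Slc25a30, 0.18 for Slc25a44 and -0.029 for Slc25a46. Median centring gave 0.26 for Slc25a14, 0.44 for Slc25a2, 0.38 for Slc25a26, 0.13 for Slc25a28, 0.052 for Slc25a36, 0.32 for Slc25a44 and 0.41 for Slc25a51. Quantile normalization gave 0.38 for Slc25a2 and 0.35 for Slc25a26, and a signal floor of 16 gave 0.084 for Slc25a2 and -0.068 for Slc25a35. Leaving out each pair gave -0.054 to 0.36 for Slc25a11, -0.12 to 0.11 for Slc25a16, -0.32 to 0.21 for Slc25a2, -1.11 to 0.22 for Slc25a23, -0.17 to 0.11 for Slc25a26, -0.031 to 0.32 for Slc25a30, -0.24 to 0.35 for Slc25a35, -0.11 to 0.39 for Slc25a42, -0.28 to 0.029 for Slc25a44, -0.091 to 0.35 for Slc25a46 and -0.081 to 0.00079 for Slc25a51. Dim carriers such as Slc25a2, Slc25a18, Slc25a27 and Slc25a35 lie near the filter, where small signals limit what can be read.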
